A study of Mus musculus with 16 samples.

Results

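Integrins are the cell's receptors for extracellular matrix, and focal adhesion proteins tie their cytoplasmic tails to actin. The genes described here were chosen by name: all 18 alpha and 8 beta integrin subunits that the symbols give, plus 15 adaptor and kinase genes (Tln1, Tln2, Vcl, Zyx, Bcar1, Pxn, Ilk, Fermt1, Fermt2, Fblim1, Ptk2, Parva, Parvb, Lims1 and Lims2). That makes 41 of 21907 protein-coding genes among 35613 genes in all. The 16 RNA-seq libraries came from mouse skeletal muscle cells in culture that carry the Pax7-nGFP reporter, a nuclear GFP under the control of the muscle stem cell gene Pax7. Of these, 15 libraries form 5 groups of 3 biological replicates, all from parental lines of 16-week-old male animals.

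The first group, bulk myoblasts, was primary myoblasts taken unsorted at passage 3 from a medium with serum and basic FGF. GFP+ myoblasts came from the same medium at passage 5 to 6 and were sorted for GFP. Differentiated myoblasts had been kept for 3 days in a low-serum differentiation medium at passage 4 to 5. Bulk MPC, a name that the labels do not spell out, had spent 2 to 3 passages in myoblast medium and then 5 to 6 passages in MPC medium. That medium also contains basic FGF, with forskolin at 5 µM, RepSox at 5 µM and CHIR9901 at 3 µM. GFP+ MPC were cells of the same kind of culture sorted for GFP. The remaining library, called high-passage here, was GFP+ MPC grown for 2 passages in MPC medium from GFP-negative sorted myoblasts at passage 8, from a 39-week-old female parent. Sorted cells were extracted with a micro kit and unsorted cells with a mini kit, so the sort and the kit cannot be told apart, and sorted myoblasts were also later in passage than bulk myoblasts.

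Each integrin is a pair of 1 alpha and 1 beta subunit, and the alpha subunit largely sets which ligand is bound. In muscle, alpha-7 with beta-1 is the main laminin receptor of the fibre membrane, while alpha-6 with beta-1 is a laminin receptor of precursors and alpha-6 with beta-4 is best known from epithelial hemidesmosomes. Inside the cell, talins and kindlins bind the beta tail and switch integrins to the active state. The complex of ILK, PINCH and parvin, the kinase FAK with paxillin and p130Cas, and the actin-side proteins vinculin, zyxin and migfilin then link that tail to the cytoskeleton and to signalling.

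The libraries held between 19300307 and 29127964 estimated counts. Pax7, a check of the labels, was at 141 to 176 TPM (transcript abundance scaled for length and library size) in bulk myoblasts, 241 to 271 in GFP+ myoblasts, 6.16 to 14.6 in differentiated myoblasts, 10.2 to 27.8 in bulk MPC and 154 to 234 in GFP+ MPC. The summed TPM of 8 markers of differentiated muscle (Myog, Myh3, Ckm, Acta1, Tnnt3, Mymk, Actn2 and Ttn) was 11540 to 16530 in bulk myoblasts, 33290 to 35790 in differentiated myoblasts and 26860 to 30510 in bulk MPC. It was 319 to 595 in GFP+ myoblasts and 575 to 1309 in GFP+ MPC, so the unsorted cultures hold much more muscle RNA than the sorted cells. In these bulk samples, fewer cells of a type and less RNA per cell cannot be told apart. Between GFP+ MPC and GFP+ myoblasts 5 of the 8 markers were called higher and 1 lower (list median 1.40), among them Ckm at 4.53 ± 0.63 (adjusted p = 6.54e-05), Actn2 at 2.54 ± 0.26 (6.19e-06) and Mymk at -1.18 ± 0.27 (0.00304) on the log2 scale. Wherever bulk MPC or differentiated myoblasts differ below from bulk myoblasts, unsorted from sorted cells or GFP+ MPC from GFP+ myoblasts, these markers move too, and their part in the result was not tested.

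Of the 41 genes, 34 had enough counts to be tested, and a change is called where the adjusted p is under 0.05. The untested genes are Fermt1, Itga11, Itgad, Itgae, Itgax, Itgb2 and Itgb7, none of which exceeded 1.11 TPM in any library. Between GFP+ MPC and GFP+ myoblasts 27 of the 34 changed, 9 higher and 18 lower in MPC, where 48.6% of all tested genes changed. Their median log2 fold change was -0.48, against 0.09 over all genes. Between bulk MPC and bulk myoblasts 25 changed, 11 higher and 14 lower, against 58.5% of all genes (28.4% higher and 30.1% lower), with a median of -0.18 and -0.01 over all genes. These counts are shares of the genes that passed the filter on low counts, not of all 41. Levels are given as TPM, while changes are fitted on counts with TMM factors, which scale libraries to one another. The factors were lowest in bulk MPC (0.772 to 0.861, against 1.02 to 1.05 in bulk myoblasts). A gap in TPM can thus differ from the fitted change in size. Among the members called between these groups, it differs in sign for Itga5 and Ilk, lower in bulk MPC by mean TPM and higher in the fit.

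Differentiation changed 19 of the 34 against bulk myoblasts, 7 higher and 12 lower, where 54.2% of all genes changed (25.6% higher and 28.6% lower), and both medians were -0.03. The share among the adhesion genes was near the background. Bulk MPC differed from differentiated myoblasts in 21, with 8 higher and 13 lower, against 43.9% of all genes, and the medians were -0.25 and 0.07. These comparisons share the bulk myoblast or bulk MPC libraries with the one before, so their values are given side by side only. Sorted and unsorted MPC differed in 30 of the 34, with 9 higher and 21 lower in GFP+ cells, against 66.6% of all genes, and the medians were -1.12 and -0.01. Sorted and unsorted myoblasts differed in 13, all of them lower in GFP+ cells, against 30.0% of all genes (17.4% lower), and the medians were -0.33 and -0.02.

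**Figure D1:**
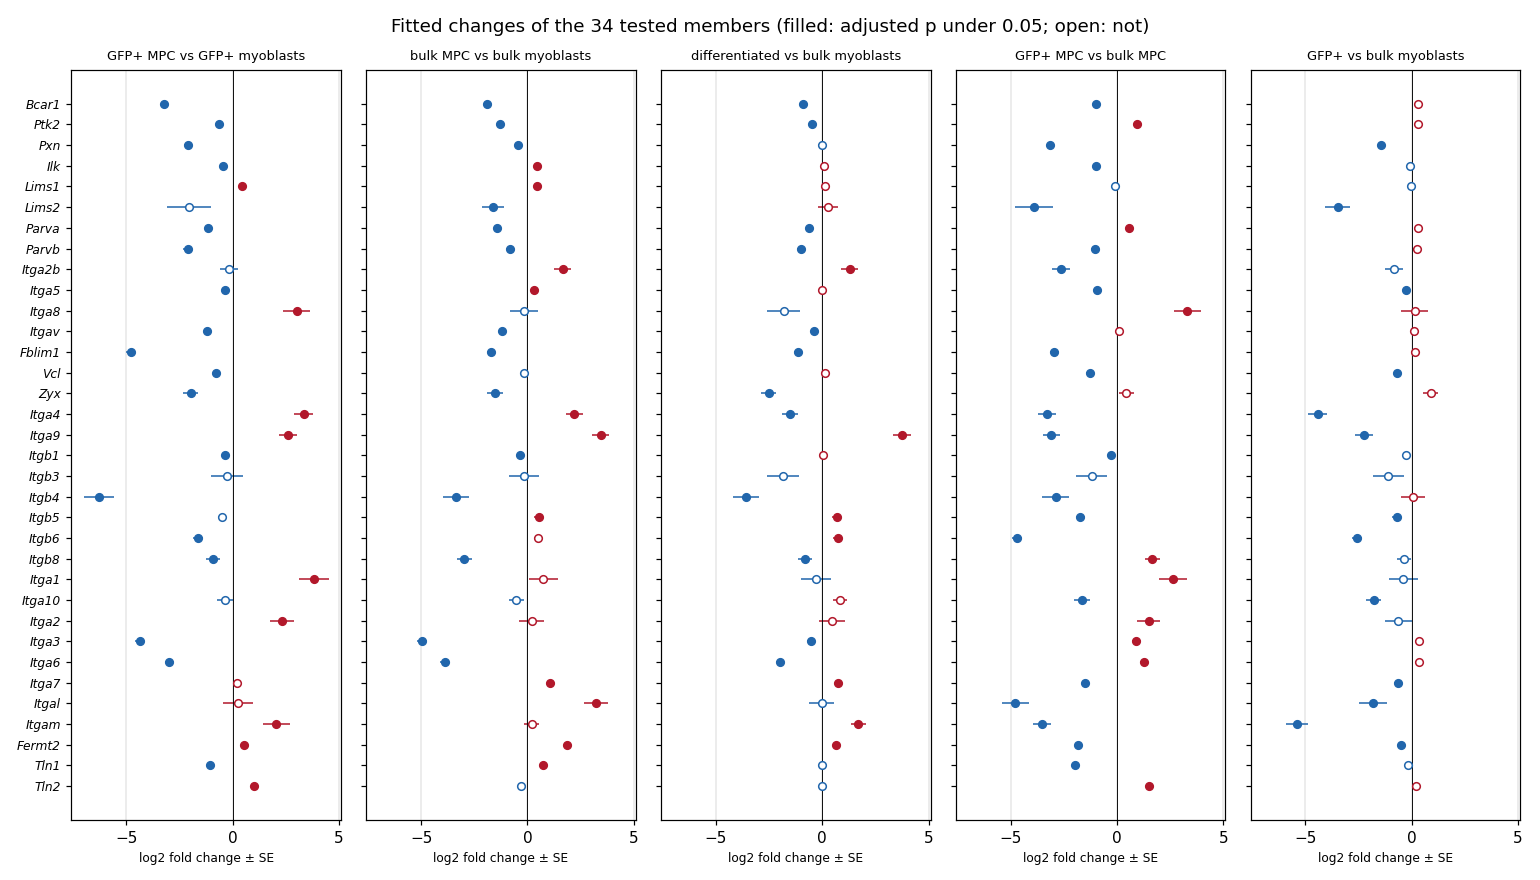
Log2 fold change with its standard error (x axis) of each of the 34 tested genes (y axis, grouped by role) in 5 comparisons of 3 against 3 libraries; filled points have an adjusted p under 0.05, red is higher and blue lower in the first-named group. Itga3 and Itga6 are far to the left in both comparisons of MPC with myoblasts, and Itga4 and Itga9 are to the right in both. No filled point is to the right of 0 for sorted against bulk myoblasts.

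Several of these genes make a muscle form of their protein by alternative splicing, and the share of those forms was higher in the unsorted cultures than in sorted cells. Among the 41 genes, 48 transcripts of 21 genes met a rule of at least 2 transcripts that each reached 20% of the gene's TPM in some group, at a mean gene level of at least 3 TPM. The share of a transcript did not overlap between groups for 12 of the 48 between GFP+ MPC and GFP+ myoblasts (19.3% of 16023 transcripts of all genes under the same rule). The count was 26 between bulk MPC and bulk myoblasts (24.6% of all), 25 between differentiated and bulk myoblasts (24.0%) and 12 between bulk MPC and differentiated myoblasts (19.7%). It was 27 between sorted and bulk MPC (27.6%) and 17 between sorted and bulk myoblasts (17.9%). With 3 libraries against 3, an exact permutation test cannot go below 0.1, so shares are described without a test.

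Sequences are shown for the alternative exons of 4 of these transcripts, since these bases tell each alternative transcript from the common one. The lower-case bases are the last 15 bases of the shared exon before, and the capitals are the alternative bases. They are read 5′ to 3′ from the GENCODE M21 transcripts, with positions on GRCm38, another build than the GRCm39 of the processing notes. The first pair are the alternative coding ends of Itgb1, the common beta subunit, on the plus strand: end A of transcript Itgb1-201 (63 bases, chr8:128732023-128732085) and end D of Itgb1-204 (72 bases, chr8:128726983-128727054), which encodes the tail of the muscle form beta-1D.
Itgb1 end A: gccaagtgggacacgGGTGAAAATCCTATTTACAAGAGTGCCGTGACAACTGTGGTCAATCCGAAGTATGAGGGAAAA
Itgb1 end D: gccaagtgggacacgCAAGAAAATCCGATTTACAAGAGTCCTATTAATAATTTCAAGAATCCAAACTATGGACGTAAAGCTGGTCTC
The next is the 113-base exon of Itga7-204 (plus strand, chr10:128956611-128956723), which encodes the cytoplasmic tail of alpha-7A.
Itga7 exon A: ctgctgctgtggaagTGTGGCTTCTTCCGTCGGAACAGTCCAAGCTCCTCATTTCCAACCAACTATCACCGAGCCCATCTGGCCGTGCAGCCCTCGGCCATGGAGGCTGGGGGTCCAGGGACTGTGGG
The third belongs to Vcl-202, the model of metavinculin, the muscle form of vinculin (135 bases, plus strand, chr14:21027083-21027217). The model is incomplete at both ends and may hold only a stretch of the exon.
Vcl metavinculin exon: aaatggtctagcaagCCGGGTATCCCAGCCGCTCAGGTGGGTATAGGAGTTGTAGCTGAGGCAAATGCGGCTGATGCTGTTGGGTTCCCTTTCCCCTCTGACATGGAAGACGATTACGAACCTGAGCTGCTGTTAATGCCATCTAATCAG
The last is a 33-base coding exon of Fermt2-204 (minus strand, chr14:45476418-45476450), from the gene of kindlin-2.
Fermt2 exon: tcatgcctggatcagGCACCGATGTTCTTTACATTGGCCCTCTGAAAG

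The transcript with Itgb1 end D held 11.6%, 9.06% and 9.95% of the gene's TPM in the bulk myoblast libraries and 24.9%, 25.7% and 21.9% in the differentiated ones. In bulk MPC it held 28.2%, 24.5% and 26.7%. Sorted cells had little of it, with 0.361%, 0.342% and 0.698% in GFP+ myoblasts and 1.09%, 1.95% and 0.713% in GFP+ MPC. Every unsorted library thus lay above every sorted one. Behind these shares stood 8.37 to 28.7 estimated counts of the transcript in sorted libraries and 221 to 744 in unsorted ones.

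The alpha-7A transcript was likewise higher in unsorted cells. It made up a mean of 20.7% ± 1.90 (SD, n = 3) of Itga7 in bulk myoblasts, 30.0% ± 1.03 in differentiated myoblasts and 27.9% ± 1.11 in bulk MPC. In GFP+ myoblasts it was 2.43% ± 0.198 and in GFP+ MPC 4.46% ± 0.136, and those groups did not overlap. The metavinculin transcript made up 25.0% ± 3.78 of Vcl in bulk myoblasts, 35.8% ± 1.03 in differentiated myoblasts and 34.0% ± 2.57 in bulk MPC, against 6.16% ± 2.05 and 8.77% ± 5.34 in GFP+ myoblasts and GFP+ MPC. The Fermt2 transcript with the extra exon held 5.35% ± 2.50 of the gene in GFP+ myoblasts and 7.26% ± 4.51 in GFP+ MPC, against 16.6% ± 1.71 in bulk myoblasts, 32.7% ± 1.59 in differentiated myoblasts and 34.0% ± 1.72 in bulk MPC.

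Further transcripts showed this pattern, and as with the Fermt2 transcript no muscle form is named for them here. Pxn-214, a paxillin transcript that ends in its own 858-base exon, held 26.1% ± 2.25 of the gene in bulk myoblasts, 36.1% ± 1.09 in differentiated myoblasts and 36.5% ± 0.889 in bulk MPC. It held 6.29% ± 2.19 in GFP+ myoblasts and 6.73% ± 0.477 in GFP+ MPC. Lims1-205, of the PINCH-1 gene, held 9.73% ± 0.412, 20.7% ± 2.37 and 23.2% ± 4.61 in bulk myoblasts, differentiated myoblasts and bulk MPC, and 3.41% ± 1.46 and 1.69% ± 1.46 in the sorted groups. It rests on at most 107 estimated counts in a library, and the 188-base exon that sets it apart holds 0 coding bases. For all 6 transcripts, every differentiated and bulk MPC library lay above every sorted library, also by shares of estimated counts. They were chosen after their values were seen, and the differentiated muscle markers move with them as given above; whether the shares would differ without that was not tested. Itgb1-204, Itga7-204, Vcl-202 and Fermt2-204 are incomplete models quantified from single-end reads, so a share is an estimate on the scale of these models.

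Not every transcript share moved in this way. Itga6-201, with the exon for the A tail, held 50.1% ± 0.613 of Itga6 in bulk myoblasts, 50.2% ± 1.04 in GFP+ myoblasts, 51.3% ± 2.15 in differentiated myoblasts, 47.1% ± 3.90 in bulk MPC and 48.9% ± 2.00 in GFP+ MPC. The shares of this transcript overlapped in every comparison, while the gene's level differed many-fold between groups. The share of the gene's other large transcript, the non-coding model Itga6-203, was lower in every differentiated library (46.8% ± 1.20) than in every bulk myoblast library (48.8% ± 0.704) and overlapped in the other comparisons. Since that model is non-coding, these shares do not compare the A tail with another tail.

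**Figure D2:**
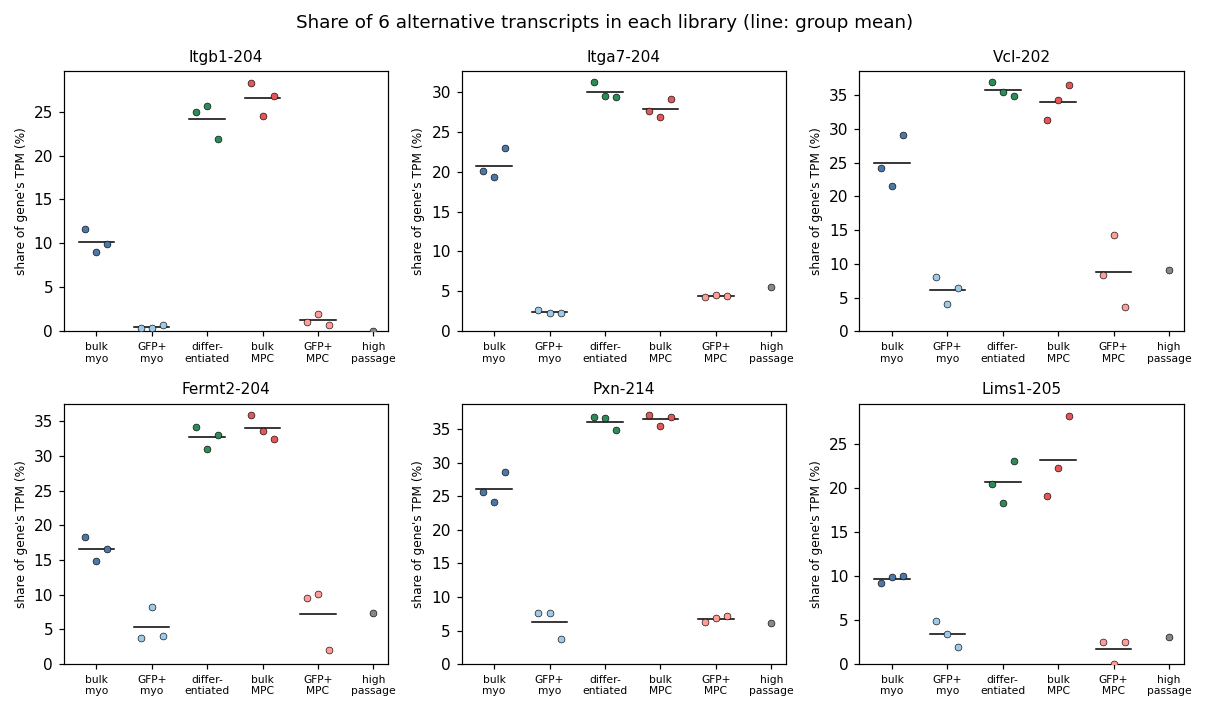
Share of the gene's TPM (y axis, percent) held by 6 alternative transcripts in each of the 16 libraries (points, by group on the x axis; lines are means of 3). In all 6 panels the differentiated and bulk MPC points lie above the sorted groups, as for Itgb1-204 with 21.9% to 28.2% against 0.342% to 1.95%.

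Among the laminin-binding alpha subunits Itga6 and Itga3 fell in MPC, and Itga7 rose in the unsorted cultures. Itga6, a surface marker of muscle precursors, was at 250, 262 and 223 TPM in bulk myoblasts, 332, 343 and 334 in GFP+ myoblasts, 57.3, 48.4 and 55.6 in differentiated myoblasts, 10.2, 16.4 and 8.75 in bulk MPC and 27.8, 46.5 and 46.8 in GFP+ MPC. Every MPC library lay below every myoblast library, the differentiated ones included, and the highest GFP+ MPC library came close to the lowest differentiated one. Its log2 fold change was -2.97 ± 0.21 (SE) between GFP+ MPC and GFP+ myoblasts (adjusted p = 2.17e-07), -3.90 ± 0.22 between bulk MPC and bulk myoblasts (7.74e-08) and -1.98 ± 0.20 with differentiation (4.99e-06).

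Itga3, a laminin receptor subunit shared with epithelia, fell more in MPC and less with differentiation. It was at 42.3, 35.6 and 41.1 TPM in bulk myoblasts, 48.1, 45.9 and 58.9 in GFP+ myoblasts and 26.0, 19.6 and 30.0 in differentiated myoblasts. In MPC it was near 1, with 0.985, 1.32 and 0.909 TPM in bulk and 1.59, 2.75 and 2.40 in GFP+ cells. The log2 change was -4.38 ± 0.22 between the GFP+ groups (adjusted p = 2.1e-08) and -4.95 ± 0.24 between the bulk groups (2.71e-08). Against differentiated myoblasts, bulk MPC gave -4.43 ± 0.23 (6.6e-08). The change with differentiation itself was -0.52 ± 0.19 (0.0342), and its adjusted p rose to 0.0503 to 0.109 with length-scaled counts or without either of 4 libraries (bulk myoblast replicates 1 and 3, differentiated replicates 1 and 2).

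Itga7 moved the other way in the unsorted cultures. It was at 461, 402 and 505 TPM in bulk myoblasts, 699, 784 and 690 in differentiated myoblasts and 672, 704 and 805 in bulk MPC, and the latter groups both lay wholly above the first. Sorted cells were lower, at 247, 229 and 327 TPM in GFP+ myoblasts and 277, 339 and 296 in GFP+ MPC, and these overlap. The log2 change was 1.04 ± 0.15 for bulk MPC (adjusted p = 6.29e-05) and 0.75 ± 0.15 for differentiation (0.000875), but 0.20 ± 0.15 between the GFP+ groups, which did not pass the test (0.292). Sorting went with -0.67 ± 0.15 in myoblasts (0.00476) and -1.52 ± 0.15 in MPC (1.27e-06).

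Put together per length, Itga7 made up 40.6% ± 4.34 (SD, n = 3) of the summed TPM of Itga3, Itga6 and Itga7 in GFP+ myoblasts and 61.4% ± 4.11 in bulk myoblasts. It made up 90.1% ± 1.66 in differentiated myoblasts, 98.2% ± 0.642 in bulk MPC and 87.8% ± 2.36 in GFP+ MPC. GFP+ MPC and GFP+ myoblasts did not overlap in this share, while the level of Itga7 alone did.

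**Figure D3:**
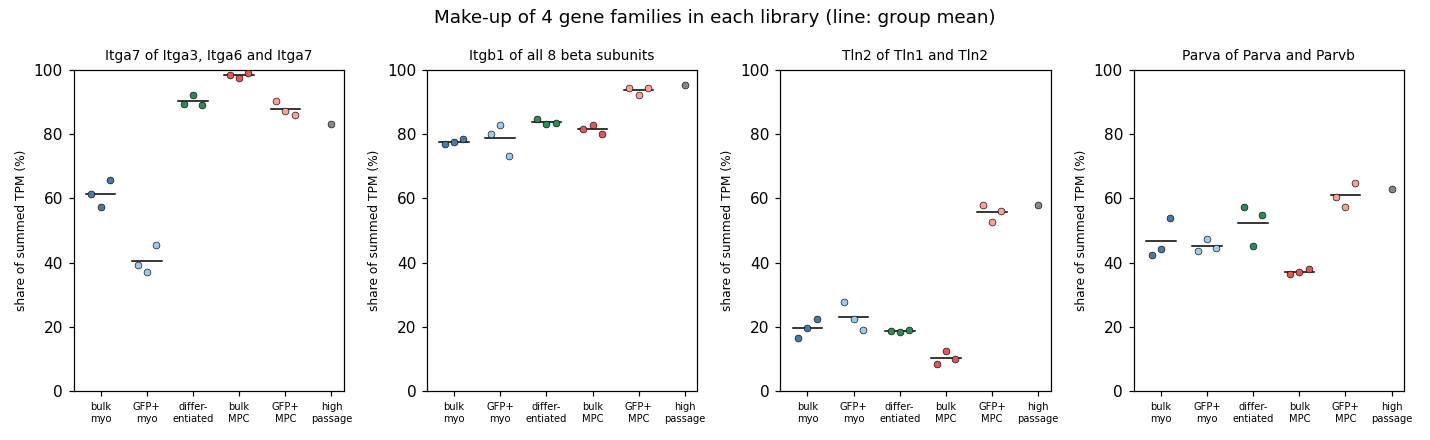
Share of the summed TPM (y axis, percent) held by Itga7 among 3 laminin-binding alpha subunits, Itgb1 among 8 beta subunits, Tln2 among talins and Parva among parvins, in each library (points; lines are means of 3). GFP+ MPC stand apart from the other replicated groups with Itgb1 at 92.2% to 94.3% and Tln2 at 52.6% to 58.1%.

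Itgb4, the partner of alpha-6 in hemidesmosomes, fell with it in MPC against myoblasts and with differentiation. Its level was 85.9, 73.6 and 43.3 TPM in bulk myoblasts, 67.8, 50.2 and 104 in GFP+ myoblasts, 5.71, 4.54 and 4.79 in differentiated myoblasts, 8.07, 3.56 and 3.05 in bulk MPC and 1.93, 0.353 and 1.14 in GFP+ MPC. No library of the last 3 groups came near the myoblast groups. The log2 change was -6.29 ± 0.72 between the GFP+ groups (adjusted p = 1.38e-05), -3.34 ± 0.61 between the bulk groups (0.000429) and -3.58 ± 0.62 with differentiation (0.000329). Single libraries set the size: the first became -7.73 without GFP+ MPC replicate 1, and the second -4.01 without bulk MPC replicate 1. Of 4 epithelial markers (Epcam, Krt8, Krt18 and Cdh1), the sum was 2.73 to 3.26 TPM in bulk myoblasts, 0.841 to 1.63 in GFP+ myoblasts, 0.954 to 3.62 in differentiated myoblasts, 0.542 to 1.45 in bulk MPC and 0.0886 to 0.485 in GFP+ MPC. Krt18 (-5.07 ± 0.89, 0.000422) and Cdh1 (-2.97 ± 0.83, 0.00942) were called lower in GFP+ MPC than in GFP+ myoblasts. Between bulk MPC and bulk myoblasts 1 of the 3 tested markers was called higher and 1 lower (list median -0.72, all genes -0.01). The lower one was Krt18 (-1.94 ± 0.53, 0.00666). Epcam was at 0 in every differentiated and bulk MPC library and at or under 0.408 TPM elsewhere. The part of these markers in the fall of Itgb4 was not tested.

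Itga4 and Itga9 form the pair of alpha subunits that bind VCAM-1, osteopontin and related ligands, and both were higher in MPC. Itga4 was at 1.29, 1.76 and 1.77 TPM in GFP+ myoblasts and 7.80, 26.5 and 12.4 in GFP+ MPC, a log2 change of 3.33 ± 0.43 (adjusted p = 3.93e-05). Without GFP+ MPC replicate 2, the highest of its group, the change was 2.68. In unsorted cells it was far higher, at 40.5, 31.0 and 25.1 TPM in bulk myoblasts and 133, 105 and 74.2 in bulk MPC (2.21 ± 0.40, 0.000406). Differentiated myoblasts had 9.92, 7.06 and 12.5 TPM, a change of -1.52 ± 0.39 (0.0056), and bulk MPC lay above them by 3.72 ± 0.43 (2.3e-05). Sorted cells were lower than unsorted ones by -4.42 ± 0.45 in myoblasts (1.07e-05) and -3.29 ± 0.42 in MPC (1.19e-05), the latter -3.94 without GFP+ MPC replicate 2.

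Itga9 rose in both unsorted routes. It was at 3.51, 4.29 and 9.03 TPM in bulk myoblasts, 51.2, 36.1 and 44.7 in differentiated myoblasts and 29.6, 18.4 and 35.7 in bulk MPC, with no overlap with bulk myoblasts. The log2 change was 3.74 ± 0.41 with differentiation (adjusted p = 9.68e-06) and 3.44 ± 0.41 for bulk MPC (1.4e-05), the latter 2.82 with length-scaled counts. Bulk MPC and differentiated myoblasts overlapped, and their difference of -0.30 ± 0.37 did not pass the test (0.533). GFP+ MPC had 5.21, 6.08 and 11.2 TPM and GFP+ myoblasts 2.48, 1.41 and 1.14, a change of 2.60 ± 0.43 (0.000295). Sorted MPC lay below bulk MPC by -3.09 ± 0.40 (1.47e-05), or -2.43 with length-scaled counts, and sorted myoblasts below bulk by -2.24 ± 0.43 (0.00201). The make-up of the pair differed too: Itga4 held 84.5% ± 9.68 (SD, n = 3) of the summed TPM of both in bulk myoblasts, 78.1% ± 9.35 in bulk MPC and 18.1% ± 3.20 in differentiated myoblasts.

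Itgb1, which pairs with most of the alpha subunits above, was the most abundant beta subunit in every library. It was at 493, 440 and 420 TPM in bulk myoblasts, 398, 380 and 350 in GFP+ myoblasts, 483, 421 and 455 in differentiated myoblasts, 284, 282 and 282 in bulk MPC and 247, 232 and 325 in GFP+ MPC. Bulk MPC lay below differentiated myoblasts by -0.42 ± 0.11 (adjusted p = 0.00861), a call that held under every alternative run (-0.47 to -0.37, highest adjusted p 0.0381). The other called changes were -0.36 ± 0.11 for bulk MPC against bulk myoblasts (0.0126), -0.38 ± 0.11 between the GFP+ groups (0.0122) and -0.27 ± 0.11 between GFP+ and bulk MPC (0.0445), and each was lost in some alternative. The first of these became -0.18 (0.218) with length-scaled counts and -0.30 (0.0743) without bulk myoblast replicate 1, the second -0.29 (0.0517) without GFP+ MPC replicate 2. The third was lost in most alternatives, among them the fits without any 1 library other than GFP+ MPC replicate 3 and bulk MPC replicate 2 (0.0518 to 0.188). Itgb1 held 77.5% ± 0.825 (SD, n = 3) of the TPM of all 8 beta subunits in bulk myoblasts and 93.6% ± 1.22 in GFP+ MPC, where the other beta subunits were low.

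Of the other beta subunits, Itgb6, which pairs with alpha-v and binds latent TGF-beta, followed the sort. It was at 32.8, 26.2 and 29.7 TPM in bulk myoblasts, 44.4, 42.1 and 41.6 in differentiated myoblasts and 28.4, 27.9 and 33.3 in bulk MPC. GFP+ myoblasts had 6.97, 6.03 and 4.52 and GFP+ MPC 1.10, 1.66 and 4.28. The log2 change with sorting was -2.58 ± 0.22 in myoblasts (adjusted p = 1.94e-06) and -4.71 ± 0.24 in MPC (7.17e-09), and GFP+ MPC lay below GFP+ myoblasts by -1.63 ± 0.23 (7.15e-05). Itgb8, another partner of alpha-v that binds latent TGF-beta, fell in bulk MPC, from 4.17, 4.07 and 5.01 to 0.384, 0.629 and 0.176 TPM (-2.97 ± 0.36, 1.59e-05). Itgb5, which binds vitronectin with alpha-v, was at 17.1, 18 and 16.8 TPM in GFP+ myoblasts and 9.56, 15.2 and 11.6 in GFP+ MPC (-0.51 ± 0.20, 0.0553, not called). It was called in 4 of the 6 pairwise comparisons. GFP+ MPC lay below bulk MPC (-1.96 to -1.58 over the alternative runs, highest adjusted p 0.00075). Against bulk myoblasts it was called lower in GFP+ myoblasts and higher in differentiated myoblasts and bulk MPC. Each of those calls was lost in some alternative (highest adjusted p 0.11, 0.0575 and 0.179). Itgb3, the other vitronectin receptor subunit, stayed at or under 1.89 TPM and passed in none of the comparisons.

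Of the RGD-binding alpha subunits, Itgav fell in MPC, and Itga5 was called often but with smaller changes. Itgav, the shared partner of several beta subunits, was at 58.7, 54 and 51.6 TPM in GFP+ myoblasts and 21.1, 19.3 and 26.4 in GFP+ MPC (-1.23 ± 0.12, adjusted p = 2.76e-06), and at 50.8, 48.7 and 40.6 in bulk myoblasts and 15.2, 16.2 and 13.5 in bulk MPC (-1.20 ± 0.12, 2.99e-06). Both MPC groups lay below both myoblast groups. Itga5, the fibronectin receptor subunit, kept within 21.2 to 40.2 TPM over the 15 replicated libraries. Its largest change in a pairwise comparison was -0.94 ± 0.09 between GFP+ and bulk MPC (1.33e-06). In the other pairwise comparisons its change lay between -0.35 and 0.31. Itga5 was called in 5 of the 6 pairwise comparisons. The calls for GFP+ against bulk myoblasts and for bulk MPC against bulk or differentiated myoblasts were lost in some alternative (highest adjusted p 0.189, 0.071 and 0.0811). Itga8, a nephronectin receptor subunit, was low throughout, at 1.31, 0.982 and 1.03 TPM in GFP+ myoblasts and 1.35, 5.13 and 3.53 in GFP+ MPC (3.01 ± 0.63, 0.00149). With length-scaled counts that change was 1.67 (0.0463).

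Collagen-binding subunits were low, at most 4.71 TPM in any library. Itga2 and the untested Itga11 were near the lower limit of the data, with 111 and 32 estimated counts over the 15 replicated libraries. Itga1 was at 0.227, 0.202 and 0.481 TPM in GFP+ myoblasts and 1.03, 4.22 and 4.29 in GFP+ MPC (log2 change 3.81 ± 0.70, adjusted p = 0.000609), so all GFP+ MPC libraries were higher. Itga2 was at 0.217 to 0.461 TPM in GFP+ MPC and 0.0210 to 0.0613 in GFP+ myoblasts (2.30 ± 0.57, 0.00447, and 3.26 with length-scaled counts). It passed the filter on low counts only through the GFP+ MPC libraries. Its call there thus depends on the filter and is no separate support for the change of Itga1. Itga10, a chondrocyte collagen receptor subunit, was at 0.511 to 0.901 TPM in GFP+ myoblasts against 1.57 to 2.11 in bulk myoblasts (-1.80 ± 0.35, 0.00239).

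Leukocyte and platelet subunits were low, and some changed. Itgam was at 0.928, 0.759 and 1.40 TPM in bulk myoblasts, 2.57, 3.04 and 2.99 in differentiated myoblasts and 0.0167 to 0.0597 in GFP+ myoblasts. It rose with differentiation (1.69 ± 0.35, adjusted p = 0.0012) and was lower in sorted myoblasts (-5.41 ± 0.51, 5.58e-06, and -6.07 without GFP+ myoblast replicate 2). Itgal was at 1.92, 1.53 and 2.67 TPM in bulk MPC and at most 0.424 in any other library (3.22 ± 0.56 against bulk myoblasts, 0.0003). Itga2b, the platelet alpha-IIb subunit, was at 8.18, 12.3 and 13.1 TPM in differentiated myoblasts and 3.17, 2.33 and 7.33 in bulk myoblasts (1.30 ± 0.40, 0.0149), a call that was lost without bulk myoblast replicate 1 (1.20, 0.055) or 2 (1.20, 0.0559). Itgb2, the obligate partner of the leukocyte subunits Itgam and Itgal, never exceeded 0.249 TPM. Of 10 leukocyte markers, 1 to 3 reached 1 TPM in a group and the sum was 2.30 to 19.9 TPM, with Ptprc at or under 0.0526 in every library and Tyrobp at 0 in the bulk myoblast, GFP+ myoblast, differentiated and bulk MPC libraries. Only 3 of these markers were tested, and between bulk MPC and bulk myoblasts 1 was called higher and 1 lower (list median 0.33, all genes -0.01). Fcer1g, the marker called higher, was high where Itgal was: it was at 6.85 to 14.8 TPM in bulk MPC and at most 0.859 in the myoblast groups and 2.02 in GFP+ MPC. Its log2 change was 4.94 ± 0.44 against bulk myoblasts (1.7e-06), 5.44 ± 0.48 against differentiated myoblasts (3.53e-06) and -3.56 ± 0.40 in GFP+ against bulk MPC (3.92e-06). Cd68 was lower in differentiated than in bulk myoblasts (-1.83 ± 0.30, 0.000203), and bulk MPC lay above the differentiated cells (2.16 ± 0.30, 9.82e-05). The part of these markers in the leukocyte subunits was not tested. Of 4 platelet markers none reached 1 TPM.

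**Figure D4:**
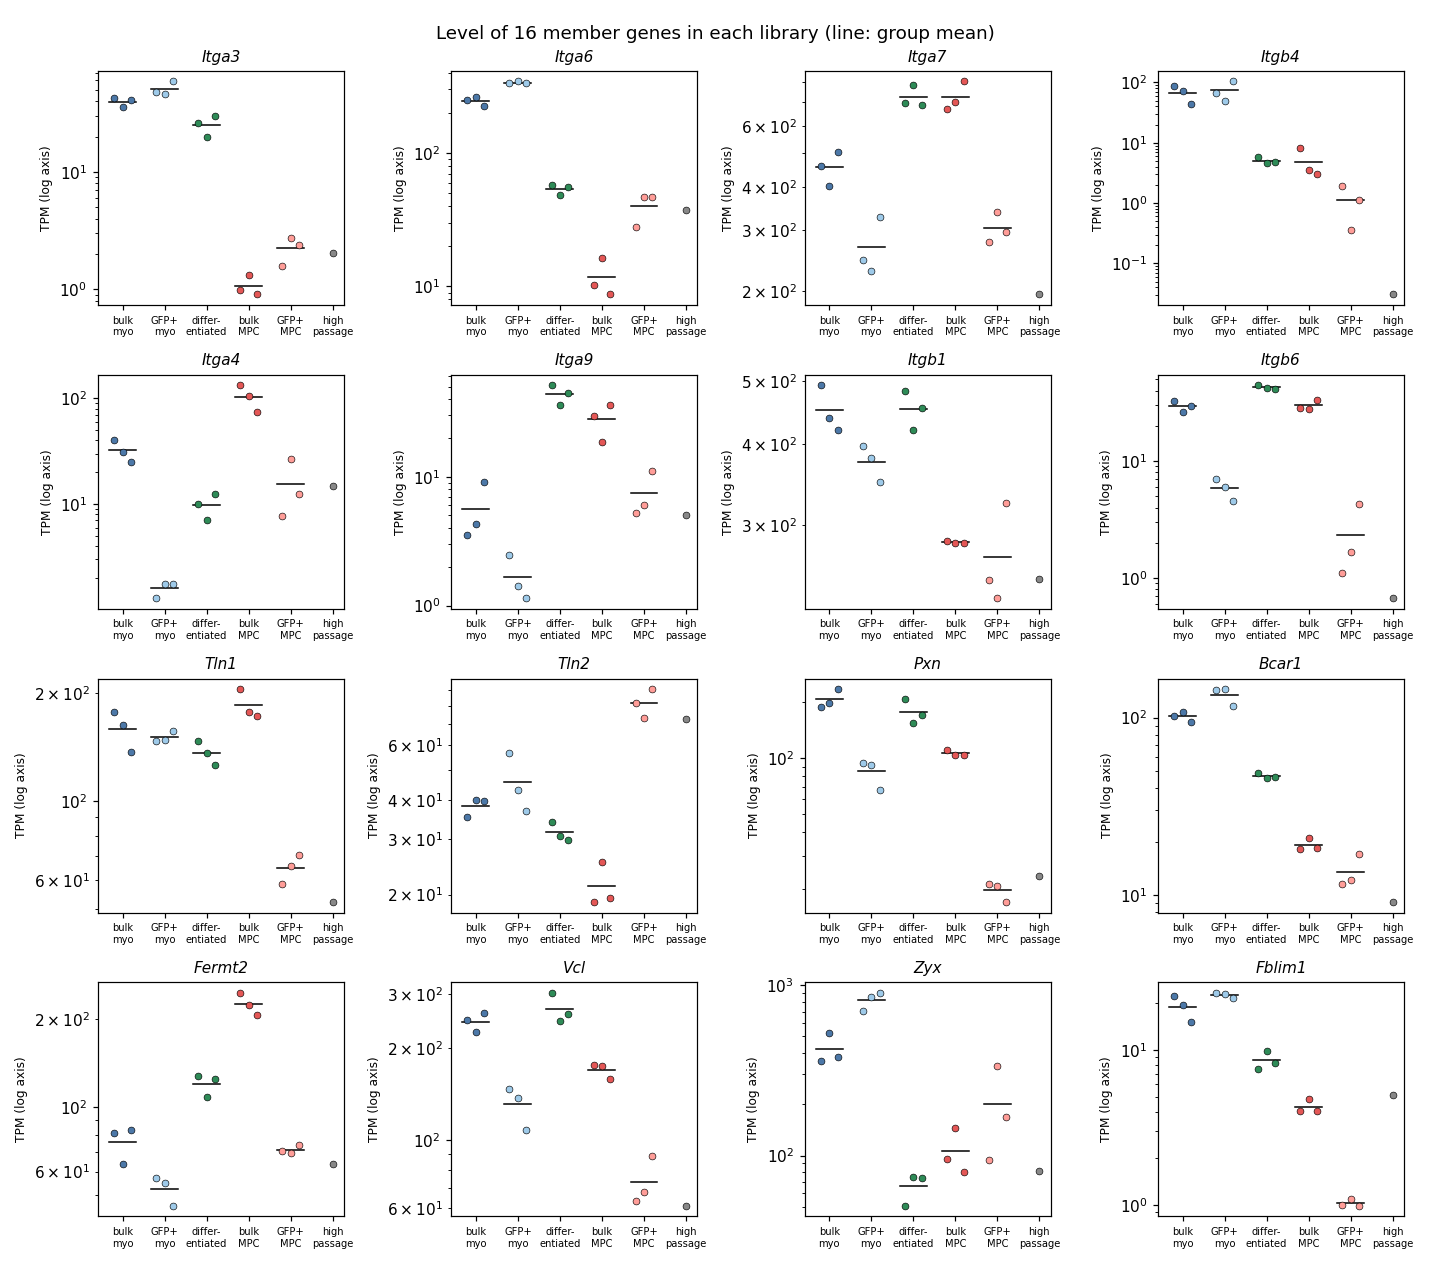
TPM (y axis, log scale, a separate range in each panel) of 16 genes in each of the 16 libraries (points by group on the x axis; lines are means of 3). Tln2 is highest and Pxn, Tln1 and Fblim1 lowest in GFP+ MPC among the replicated groups, whereas Itga3 is lowest in bulk MPC.

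Talins exchanged ranks in GFP+ MPC. Tln1, the widely expressed talin, was at 177, 163 and 137 TPM in bulk myoblasts, 147, 148 and 157 in GFP+ myoblasts, 147, 136 and 126 in differentiated myoblasts and 205, 177 and 172 in bulk MPC, but at 58.7, 65.8 and 70.5 in GFP+ MPC. Tln2, the talin enriched in striated muscle and brain, was at 81.3, 73.1 and 90.3 TPM in GFP+ MPC and at most 56.6 in any library of the other replicated groups. Against GFP+ myoblasts the log2 changes were -1.09 ± 0.11 for Tln1 (adjusted p = 3.68e-06) and 1.00 ± 0.13 for Tln2 (4.32e-05), and against bulk MPC -1.99 ± 0.11 (1.15e-08) and 1.48 ± 0.13 (5.38e-07). Tln2 was 55.6% ± 2.77 (SD, n = 3) of talin TPM in GFP+ MPC, 23.1% ± 4.39 in GFP+ myoblasts and 10.4% ± 2.05 in bulk MPC. Between bulk MPC and bulk myoblasts the change of Tln2 was -0.30 ± 0.13 (0.0606), and it passed with the replicate block (-0.31, 0.0473).

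Kindlin-2, encoded by Fermt2, is the kindlin of muscle, and kindlin-1 (Fermt1) stayed at or under 0.0464 TPM. Fermt2 was at 81.1, 63.8 and 83.3 TPM in bulk myoblasts, 128, 108 and 125 in differentiated myoblasts and 246, 224 and 206 in bulk MPC, with no overlap among these groups. The log2 change was 0.65 ± 0.12 with differentiation (adjusted p = 0.000579) and 1.85 ± 0.12 for bulk MPC (2.74e-07). GFP+ MPC had 70.7, 69.3 and 74.0 TPM and GFP+ myoblasts 56.9, 54.6 and 45.8 (0.53 ± 0.12, 0.00292).

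In the complex of ILK, PINCH and parvin, both parvins and Ilk were lower in GFP+ MPC than in GFP+ myoblasts, and Lims1 was higher. Ilk was at 232, 216 and 181 TPM in GFP+ myoblasts and 131, 145 and 156 in GFP+ MPC (log2 change -0.46 ± 0.11, adjusted p = 0.00395), and sorted MPC lay below bulk MPC by -0.99 ± 0.11 (4.21e-06). Lims1 (PINCH-1) stayed between 62.2 and 106 TPM over the 15 replicated libraries, with changes of 0.43 ± 0.09 between the GFP+ groups (0.00126) and 0.46 ± 0.09 between the bulk groups (0.000536). Parva was at 123, 124 and 108 TPM in GFP+ myoblasts, 42.0, 39.8 and 55.5 in GFP+ MPC, 91.8, 97.3 and 86.9 in bulk myoblasts and 30.0, 29.3 and 31.7 in bulk MPC. Its changes were -1.18 ± 0.11 (3.47e-06) and -1.43 ± 0.12 (8.38e-07), while its rise of 0.57 from bulk to GFP+ MPC (0.000616) became 0.09 (0.534) with length-scaled counts.

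Parvb, which is prominent in muscle, fell from 160, 138 and 134 TPM in GFP+ myoblasts to 27.3, 29.5 and 30.2 in GFP+ MPC (-2.13 ± 0.19, adjusted p = 2.17e-06), with a wide gap between the groups. The parvins' make-up thus differed: Parva held 60.9% ± 3.67 (SD, n = 3) of their TPM in GFP+ MPC, 45.1% ± 1.97 in GFP+ myoblasts and 37.2% ± 0.816 in bulk MPC. Lims2 (PINCH-2) was at most 2.34 TPM and had 1 estimated count in the 3 GFP+ MPC libraries together against 17 in bulk MPC, a ratio of 20.2 with a 95% interval of 3.16 to 844 for counting error only. Bulk MPC replicate 2 was at 0.579 CPM (counts scaled to library size) against 0.139 and 0.118 in the other replicates. The fitted log2 change of -3.91 ± 0.90 (0.00163) was -2.83 without that library, -5.73 without GFP+ MPC replicate 3 and -5.63 with length-scaled counts. Between sorted and bulk myoblasts its log2 change was -3.49 ± 0.60 (0.000891), and -2.73 with length-scaled counts.

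FAK, paxillin and p130Cas, which relay adhesion to signalling, were all lower in both MPC groups than in the matching myoblasts. Bcar1, encoding p130Cas, was at 144, 145 and 116 TPM in GFP+ myoblasts and 11.6, 12.2 and 16.9 in GFP+ MPC, a log2 change of -3.24 ± 0.12 (adjusted p = 4.59e-09). In unsorted cells it went from 102, 108 and 94.7 in bulk myoblasts to 48.5, 45.5 and 46.4 after differentiation (-0.92 ± 0.12, 2.53e-05) and 18.2, 20.9 and 18.4 in bulk MPC (-1.92 ± 0.12, 1.43e-07). These 3 groups did not overlap, and bulk MPC lay below differentiated myoblasts (-1.0 ± 0.12, 2.48e-05).

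Pxn, encoding paxillin, was lower in sorted cells of both media. It was at 187, 197 and 233 TPM in bulk myoblasts, 206, 154 and 169 in differentiated myoblasts and 111, 104 and 103 in bulk MPC, but at 94.4, 92.1 and 67.7 in GFP+ myoblasts and 21.2, 20.6 and 17.0 in GFP+ MPC. The change between the GFP+ groups was -2.13 ± 0.17 (adjusted p = 5.8e-07), and with sorting -1.45 ± 0.16 in myoblasts (2.47e-05) and -3.13 ± 0.17 in MPC (1.24e-08). Between bulk MPC and bulk myoblasts it was -0.44 ± 0.16 (0.0282), and that adjusted p rose to 0.0718 to 0.104 without bulk MPC replicate 2 or 3 or bulk myoblast replicate 3. With TMM factors the mean level was 373 CPM in bulk MPC and 523 in bulk myoblasts, a smaller fold difference than in TPM. Ptk2, encoding FAK, was at 67.0, 61.0 and 62.4 TPM in GFP+ myoblasts and 26.2, 34.5 and 38.8 in GFP+ MPC (-0.63 ± 0.14, 0.00176), and lower in bulk MPC than in bulk myoblasts (-1.28 ± 0.14, 6.49e-06). Its fall with differentiation (-0.47, 0.0101) was lost with length-scaled counts (-0.25, 0.224).

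On the actin side, Vcl (vinculin), Zyx (zyxin) and Fblim1 (migfilin, which recruits filamin to adhesions) all fell between the GFP+ groups. Fblim1 went from 23.1, 22.9 and 21.5 TPM in GFP+ myoblasts to 1.01, 1.10 and 0.993 in GFP+ MPC (log2 change -4.80 ± 0.21, adjusted p = 6.82e-09). In unsorted cells it was 22.0, 19.4 and 15 in bulk myoblasts, 7.51, 9.86 and 8.26 in differentiated myoblasts (-1.16 ± 0.17, 9.58e-05) and 4.06, 4.83 and 4.02 in bulk MPC (-1.71 ± 0.17, 4.15e-06). The bulk and GFP+ myoblasts overlapped, and the other groups were separate from them and from one another.

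Zyx, a mechanosensitive adaptor of actin bundles, was at 358, 524 and 378 TPM in bulk myoblasts, 704, 849 and 899 in GFP+ myoblasts, 50.8, 75.0 and 74.2 in differentiated myoblasts, 95, 145 and 80.0 in bulk MPC and 94.4, 336 and 169 in GFP+ MPC. GFP+ MPC was the most variable group, with replicate 2 at over 3 times replicate 1. The log2 change was -2.52 ± 0.37 with differentiation (adjusted p = 9.39e-05), -1.53 ± 0.36 for bulk MPC (0.0025) and -1.98 ± 0.36 between the GFP+ groups (0.000609), the last -2.57 without GFP+ MPC replicate 2. Vcl was at 147, 137 and 108 TPM in GFP+ myoblasts and 63.6, 67.7 and 88.9 in GFP+ MPC (-0.77 ± 0.14, 0.000693). Its level in bulk myoblasts (246, 225 and 260) overlapped that in differentiated myoblasts (302, 246 and 258), with a change of 0.13 ± 0.14 (0.45), while its metavinculin share was higher in every differentiated library.

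The difference that sorting made was itself different between the media for 21 of the 34 genes, where 37.1% of all genes passed this test. The sort effect in MPC minus that in myoblasts was lower for 15 and higher for 6, against 16.8% and 20.3% of all genes. Tln1 changed by -0.18 ± 0.11 in sorted myoblasts (adjusted p = 0.226, not called) and fell in sorted MPC, a difference of -1.81 ± 0.15 (5.62e-06). Fblim1 gave -3.09 ± 0.26 (5.99e-06) and Bcar1 -1.32 ± 0.16 (8.27e-05), since both were called lower in sorted MPC and not in sorted myoblasts (0.15 ± 0.17, 0.536, and 0.30 ± 0.11, 0.0596). Tln2 went the other way (1.31 ± 0.19, 0.000192), as did Itga6 (0.93 ± 0.28, 0.0183). For Itga4, lower in sorted cells of both media, the difference of 1.12 ± 0.56 did not pass (0.131).

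**Figure D5:**
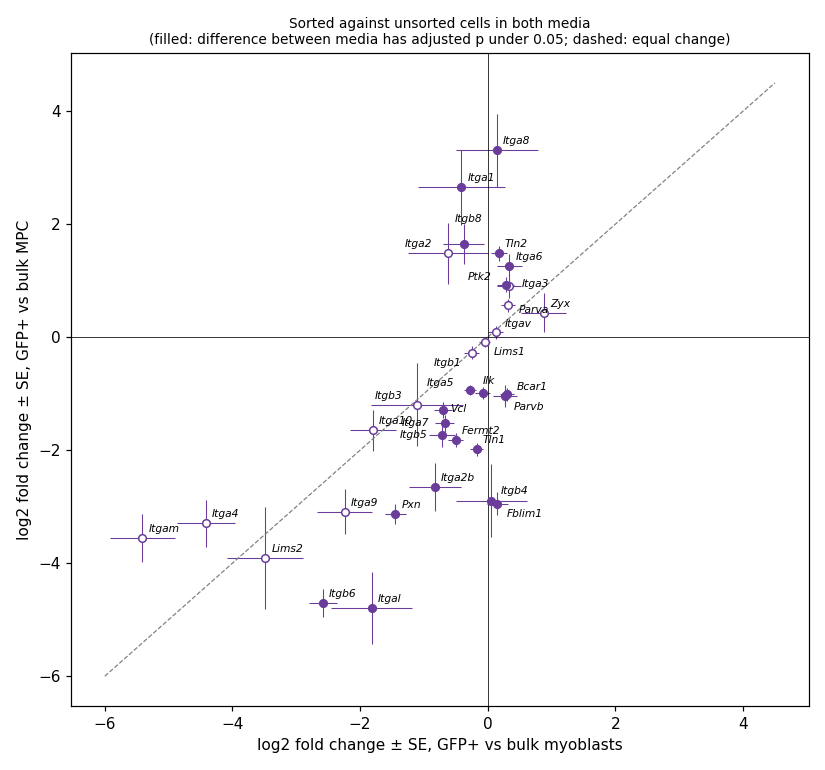
Log2 fold change of sorted against bulk cells in myoblast medium (x axis) and in MPC medium (y axis) for the 34 tested genes, with standard errors; filled points differ between media at an adjusted p under 0.05, and the dashed line marks an equal change. Fblim1, Tln1 and Itgb4 lie well below the line and Tln2, Itga6 and Itgb8 above it, while Itga4, Itga9 and Lims2 are open points.

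Other genes of the adhesion pathway were taken from 2 lists. Of 58 further focal adhesion genes 56 were tested, and between GFP+ MPC and GFP+ myoblasts 7 were higher and 26 lower, where 26.0% of all tested genes were higher and 22.7% lower (list median -0.32, all genes 0.09). Ptk2b, the FAK relative Pyk2, fell from a mean of 40.6 ± 18.6 (SD, n = 3) to 0.262 ± 0.226 CPM (-7.20 ± 0.62, adjusted p = 1.23e-06). Tgfb1i1, the paxillin relative Hic-5, changed by -4.13 ± 0.35 (1.1e-06), Tns3, a tensin, by -3.30 ± 0.22 (1.47e-07) and the kinase gene Pak1 by -3.22 ± 0.22 (2.03e-07). Against this direction Itgb1bp2, encoding the muscle protein melusin that binds the beta-1 tail, was higher (3.04 ± 0.35, 1.48e-05).

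Between bulk MPC and bulk myoblasts 11 of the 56 were higher and 31 lower, where 28.4% and 30.1% of all genes were (median -0.62, all genes -0.01). Flna, which crosslinks actin (-3.31 ± 0.34, adjusted p = 4.77e-06), was among the largest falls with Ptk2b (-8.0 ± 0.68, 1.2e-06). Markers of pericytes and smooth muscle fell there too: the summed TPM of 6 (Acta2, Myh11, Rgs5, Cnn1, Tagln and Kcnj8) was 1324 to 1676 in bulk myoblasts, 887 to 1078 in differentiated myoblasts and 130 to 210 in bulk MPC, and 310 to 808 in GFP+ myoblasts and 293 to 862 in GFP+ MPC. Of the 5 tested, 3 were called lower in bulk MPC than in bulk myoblasts (Rgs5 -4.43 ± 0.93, 0.00123, Tagln -3.41 ± 0.50, 8.2e-05, and Acta2 -2.52 ± 0.38, 9.46e-05) and 1 higher, and their part in the list's change was not tested.

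Differentiation gave 13 of the 56 focal adhesion genes higher and 26 lower, where 25.6% and 28.6% of all genes were (median -0.22, all genes -0.03), with Flna at -3.26 ± 0.34 (adjusted p = 6.62e-06) and the tensin gene Tns1 higher (1.71 ± 0.22, 3.4e-05). Bulk MPC against differentiated myoblasts gave 8 higher and 23 lower (24.4% and 19.4% of all genes), with a list median of -0.27 and 0.07 over all genes. GFP+ against bulk MPC gave 24 higher and 20 lower (32.9% and 33.7% of all genes), with medians of 0.06 and -0.01. GFP+ against bulk myoblasts gave 5 higher and 12 lower (12.7% and 17.4% of all genes), with medians of 0.15 and -0.02, so the share called was near the background. Itgb1bp2 was lower in sorted cells, by -5.59 ± 0.35 in MPC (2.96e-08) and -6.44 ± 0.38 in myoblasts (9.42e-08).

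Of 36 genes of extracellular integrin ligands 33 were tested. Between GFP+ MPC and GFP+ myoblasts 7 were higher and 11 lower, a share near the 48.6% of all genes called there (median 0.04, all genes 0.09). Thbs1, encoding thrombospondin-1, changed by -7.71 ± 0.58 (adjusted p = 3.91e-07), and Lama4, encoding laminin alpha-4, by 6.95 ± 1.34 (0.000887), from 6 estimated counts over the GFP+ myoblast libraries to 710. Vtn, encoding vitronectin, had 494 estimated counts over the GFP+ MPC libraries and 0 over the GFP+ myoblast libraries. Bulk MPC against bulk myoblasts gave 5 higher and 17 lower, where 28.4% and 30.1% of all genes were (median -1.14, all genes -0.01), with Spp1, encoding osteopontin, a ligand of alpha-4, alpha-9 and alpha-v integrins, at -4.38 ± 0.75 (0.000254).

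Differentiation gave 3 ligand genes higher and 17 lower, where 25.6% and 28.6% of all genes were (median -1.73, all genes -0.03). Among them Vcam1, the ligand of alpha-4 and alpha-9, changed by -3.77 ± 0.55 (adjusted p = 8.56e-05), and Col4a1, a basement membrane collagen, by -3.18 ± 0.48 (0.000124), while Lamb2, encoding laminin beta-2, was higher (1.38 ± 0.20, 8.23e-05). Bulk MPC against differentiated myoblasts gave 5 higher and 6 lower, a smaller share than the 43.9% of all genes called (median -0.05, all genes 0.07). Sorted MPC had 15 higher and 8 lower than bulk MPC, where 32.9% and 33.7% of all genes were (medians 0.59 and -0.01). Sorted myoblasts had 3 higher and 6 lower than bulk myoblasts, a share near the 30.0% of all genes called (medians -0.26 and -0.02). Npnt, encoding nephronectin, was lower in sorted MPC (-4.35 ± 0.30, 5.68e-08).

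With 0.5 CPM added to every value, the high-passage library was within 2-fold of the range of the GFP+ MPC libraries for 33 of the 34 genes, where 3.88% of all tested genes lay beyond it. It has no replicate, so no test was made. Fblim1 lay above, at 9.06 CPM against 1.01 to 1.61 in GFP+ MPC. Without that addition Itgb4 (0.131 CPM against 0.719 to 7.76) and Itga2 (0.131 against 0.563 to 1.01) also lay more than 2-fold below the range, at levels of few counts. Tln2 made up 58.1% of talin TPM and Itga7 83.2% of the laminin-binding alpha TPM there, and no estimated count fell on Itgb1-204.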

How the data were processed

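RNA of 16 libraries was measured by stranded, poly(A)-selected, single-end sequencing, per the labels' protocols. Per the submitters' processing notes, fastp 0.20.0, kallisto 0.46.1 and the build GRCm39 were used. Per the file headers, the deposited tables hold each transcript's estimated counts, its TPM and 2 lengths in bases (full and effective, an other unit) used only for length-scaled counts. Of 121798 transcripts, 120739 matched GENCODE M21 (GRCm38, used for names and transcript structures) and 1059 were left out. Estimated counts were summed per gene and rounded. The 15 replicated libraries entered a single fit of edgeR 4.0.16 (R 4.3.3; TMM factors 0.7716 to 1.126; filterByExpr with minimum count 10) with a term per group, which tested 15533 genes by the quasi-likelihood test. Adjusted p values are Benjamini-Hochberg values over all of these, and standard errors were derived from the F statistic. Levels between genes are compared by TPM, to which no TMM factor was applied.

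The members, lists and tests were chosen with earlier results of these data known. All 41 genes could be named, and of each list up to 4 genes with the largest changes past the threshold in the same direction in all same-numbered pairs, plus up to 2 against the majority. No pair of libraries agreed within counting error (lowest chi-square divided by its degrees of freedom 9.778, highest 58.55). The labels do not say what the replicate number stands for: same-numbered bulk myoblast and bulk MPC libraries deviated together (correlations 0.131 to 0.163), and other pairs of groups did not meet this check throughout. Replicates are separate biological samples per the labels. Alternatives were DESeq2 1.42.0, no filter, a replicate block, only the groups compared, length-scaled counts and leaving out each library. The steps were tested on simulated data.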

Additional observations from a re-analysis of the deposited data

Results flagged for a closer look

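For 21 of the 34 tested genes the change from bulk to GFP+ cells differed between MPC and myoblasts by the test of that difference (edgeR, adjusted p under 0.05), which 37.1% of all tested genes also passed. Values are the log2 change in MPC minus that in myoblasts. On the negative side, among integrin subunits, were Itgal -2.97, Itgb4 -2.95, Itgb6 -2.12, Itga2b -1.82, Itgb5 -1.03, Itga7 -0.85, Itga5 -0.66. Among adaptors and kinases, the negative values were Fblim1 -3.09, Tln1 -1.81, Pxn -1.68, Fermt2 -1.32, Bcar1 -1.32, Parvb -1.30, Ilk -0.91, Vcl -0.59. On the positive side were Itga8 3.16, Itga1 3.06, Itgb8 2.03, Tln2 1.31, Itga6 0.93, Ptk2 0.64.

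The differentiated muscle markers were lower in sorted than in bulk cells of both media (8 of 8 called lower in each, with list medians of -5.54 in MPC and -5.36 in myoblasts), and for 2 of the 8 the difference between media was called. The part of these markers in the values above was not tested. Single libraries moved some of these values: Itgb4 was -4.39 without GFP+ MPC replicate 1 and -2.28 without bulk MPC replicate 1, Itga8 was 4.63 without bulk MPC replicate 2 and 2.16 with length-scaled counts (adjusted p = 0.0981), and Itga1 was 3.84 without bulk MPC replicate 2. The call was lost for Vcl in 10 alternatives, for Itga2b in 6, for Itga1 in 3, for Ptk2 in 2 and for Itgal in 1; for Ptk2 the value was 0.17 with length-scaled counts (0.605).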

How the results depend on the processing

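The counts of changed genes kept within 1.5 times of the reported ones under every alternative run. The replicate block gave 26 for GFP+ MPC against GFP+ myoblasts, 26 for bulk MPC against bulk myoblasts, 19 for differentiation, 20 for bulk MPC against differentiated myoblasts, 30 for GFP+ against bulk MPC, 12 for GFP+ against bulk myoblasts and 21 for the difference of the sort effects. It ended 5 single-gene calls and added 3 over the 238 results of 34 genes in 7 comparisons. Between bulk MPC and bulk myoblasts, where same-numbered libraries deviated together, it changed the call of Tln2 and no other. Leaving out 1 library gave ranges, in the same order, of 25 to 28, 22 to 27, 14 to 21, 17 to 21, 28 to 30, 10 to 17 and 17 to 22. Of 156 calls, 123 held under all 20 alternatives and 0 reversed. The 6 transcripts with higher shares in every differentiated and bulk MPC library were also 6 by shares of estimated counts; leaving out a library cannot change this count. Precision is limited by 3 libraries a group and, for transcripts and low genes such as Itga2 and Lims2, by few estimated counts.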
